A study of Arabidopsis thaliana with 4 samples.

Results

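The genes described here are GH3.3 (AT2G23170), WES1, also called GH3.5 (AT4G27260), and IAA29 (AT4G32280), 3 auxin-responsive genes of *Arabidopsis thaliana*. They were chosen by name, with earlier results of these data known, each through its 1 probe set. They are 3 of the 13286 loci that the array annotation names singly. Whole seedlings, wild-type Col or the ref6-1 mutant in the Col background, were harvested after 10 days on MS nutrient plates at 23 °C under 16 h of light and 8 h of darkness, without further treatment. Total RNA was hybridised to Affymetrix ATH1 arrays, 2 biological replicates per genotype and 4 arrays in all. The labels give no other allele or agent, and they do not describe the nature of the ref6-1 lesion. REF6 is a Jumonji-type demethylase that removes repressive methyl marks from histone H3. Its own transcript was not analysed here, so the genotype labels were not checked in that way.

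Auxin acts through TIR1/AFB F-box receptors, which mark Aux/IAA proteins for destruction and so free the auxin response factors to switch on early genes. IAA29 encodes one of these Aux/IAA repressors, and its transcript is raised by auxin and, through PIF factors, by shade and warmth. GH3.3 and WES1 encode acyl amido synthetases that join auxin to amino acids and so lower the pool of free hormone. WES1 is also known to act on salicylic acid. Both GH3 genes are induced by auxin, so all 3 genes are commonly read as feedback outputs of the pathway.

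All 3 transcripts gave lower intensities in ref6-1 than in Col, by 31.5% for WES1, 18.0% for IAA29 and 13.4% for GH3.3 in the ratio of group means. For each gene both ref6-1 arrays lay below both Col arrays, an ordering that 19.5% of all 22746 probe sets tested also showed. None of the 3 passed the limma test (adjusted p under 0.05 over all probe sets), which called 1.48% of the probe sets. In whole seedlings, fewer cells expressing a gene and less RNA per cell cannot be told apart.

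WES1 was read at intensities of 2460 and 3073 on the Col arrays, and at 1701 and 2092 on the ref6-1 arrays. The highest ref6-1 array lay 367.7 below the lowest Col array. The means were 2767 ± 433.7 in Col and 1897 ± 277.0 in ref6-1 (SD, n = 2 each). Each of the 4 pairings of a ref6-1 with a Col array gave a ratio below 1, from 0.553 to 0.851. On the scale of log2(intensity + 16), used for every fold change here, the difference was -0.54 (SE 0.135, 95% interval -0.84 to -0.24, limma unadjusted p = 0.00265, adjusted p = 0.115). The interval corresponds to a level in ref6-1 of 0.558 to 0.848 times that in Col, before any adjustment for the number of probe sets.

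IAA29 read 2223 and 2152 on the Col arrays and 1883 and 1706 on the ref6-1 arrays. The Col arrays were close to each other, and the ref6-1 arrays lay at least 269.1 below them. The means were 2188 ± 50.6 in Col and 1794 ± 125.2 in ref6-1 (SD, n = 2 each), with pairwise ratios between 0.767 and 0.875. The log2 fold change was -0.29 (SE 0.0985, 95% interval -0.51 to -0.07, unadjusted p = 0.0162, limma adjusted p = 0.354).

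GH3.3 read 1556 and 1733 on the Col arrays and 1372 and 1476 on the ref6-1 arrays. The genotypes did not overlap, but the gap between the nearest arrays was 80.2, smaller than the SD of 125.0 between the Col arrays. The means were 1645 ± 125.0 and 1424 ± 73.9 (SD, n = 2 each), with pairwise ratios between 0.792 and 0.949. The log2 fold change was -0.20 (SE 0.102, 95% interval -0.43 to 0.02, unadjusted p = 0.0722, limma adjusted p = 0.670), so the interval holds values on both sides of 0. An exact permutation test of 2 against 2 arrays cannot give a two-sided p below 0.333, and none was run.

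**Figure D1:**
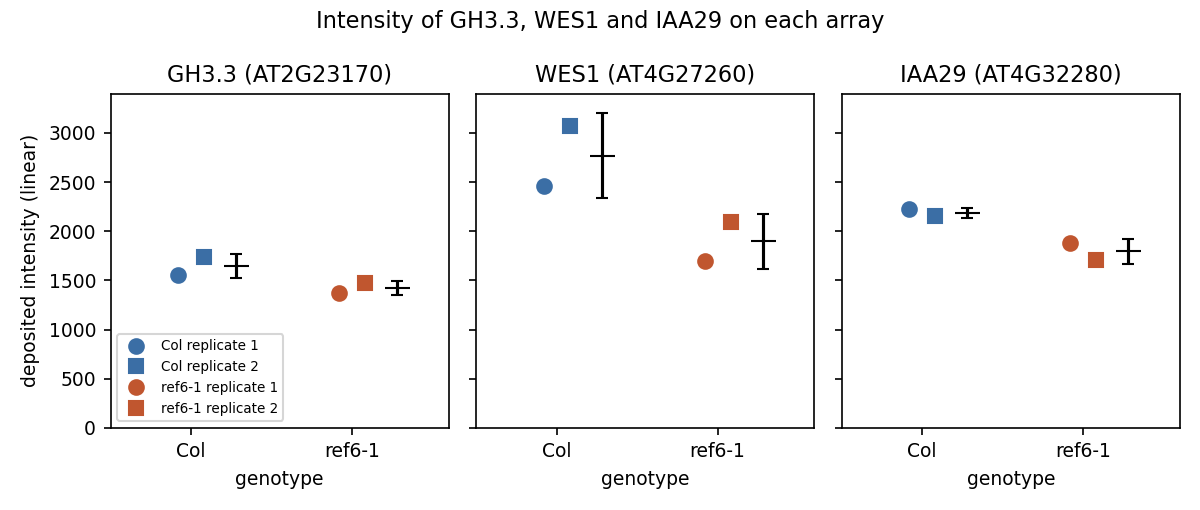
Deposited intensity (linear axis from 0) of GH3.3, WES1 and IAA29 on each of the 4 arrays, with Col in blue and ref6-1 in orange; circles are replicate 1, squares replicate 2, and black bars the mean ± SD (n = 2). In each panel both ref6-1 arrays lie below both Col arrays, and WES1 shows both the widest gap and the widest spread between replicates.

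The order of the genes by fold change was not the order of their replicate spread. The residual SD of log2 values between replicates was 0.218 for WES1, against 0.104 predicted for its brightness by limma's intensity trend. It was 0.093 for GH3.3 and 0.0744 for IAA29, both below the same predicted SD. Limma's SE combines the replicate and the predicted spread. The SE of WES1 thus rests on less than its own replicate spread, and those of GH3.3 and IAA29 on more. In WES1 replicate 2 was 1.25 times replicate 1 in Col and 1.23 times in ref6-1. The corresponding ratios were 1.11 and 1.08 for GH3.3, and 0.968 and 0.906 for IAA29. For each gene the replicates thus differed in the same direction in both genotypes. Between arrays of the same replicate number, ref6-1 over Col was 0.691 and 0.681 for WES1. It was 0.881 and 0.852 for GH3.3, and 0.847 and 0.793 for IAA29. The labels do not say whether arrays of the same number share a batch, and the cause was not tested.

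All 3 probe sets were bright, and 5.04% (GH3.3), 2.69% (WES1) and 3.46% (IAA29) of the probe sets had a higher mean intensity, so the added constant of 16 hardly compresses their fold changes. Between mean intensities of 1000 and 4000 lay 1683 probe sets, of which 38 were called, 22 higher and 16 lower in ref6-1. The smallest change called lower in this range was -0.49, and WES1 at -0.54 was past that size without being called. Of these bright probe sets, 12 (0.713%) had a lower fold change than WES1, 59 (3.51%) a lower one than IAA29 and 130 (7.72%) a lower one than GH3.3. A residual SD above that of WES1 was found in 8.91% of them. Over all 22746 probe sets, WES1 ranked 521 by unadjusted p, IAA29 ranked 1044 and GH3.3 ranked 2450, while 337 were called (533 without Col replicate 2).

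**Figure D2:**
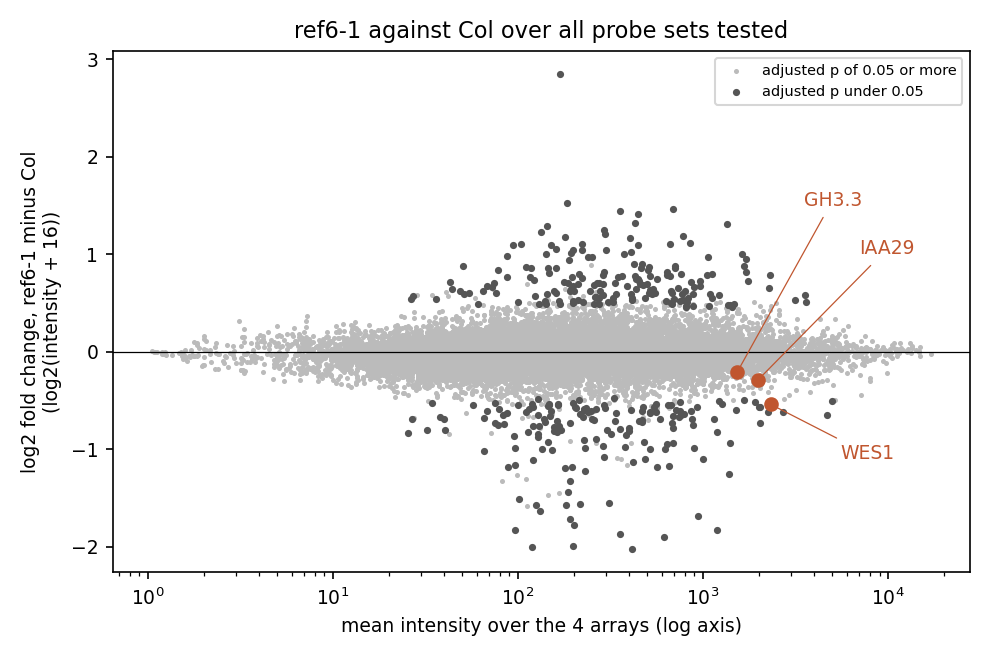
Log2 fold change of ref6-1 against Col, on the scale of log2(intensity + 16), plotted against mean intensity (log axis) for the 22746 probe sets tested; dark points passed an adjusted p of 0.05 in limma. GH3.3, WES1 and IAA29, in orange, lie at the bright end at -0.20, -0.54 and -0.29, and none is among the 337 dark points.

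Whether WES1 passed depended on which arrays were used. It passed without Col replicate 1, at -0.70 (limma adjusted p = 0.0184), and without ref6-1 replicate 2, at -0.69 (adjusted p = 0.0170), where 1.29% and 1.2% of all probe sets were called. These are the Col and the ref6-1 array whose WES1 intensities lie nearest to the other genotype. Without Col replicate 2 the value was -0.38 (adjusted p = 0.239) and without ref6-1 replicate 1 it was -0.39 (adjusted p = 0.322), with 2.34% and 1.75% of the probe sets called. IAA29 ranged from -0.36 to -0.21 and GH3.3 from -0.28 to -0.13 when 1 array was left out. The highest of the 4 GH3.3 values, -0.13, came without Col replicate 2, and the lowest, -0.28, without Col replicate 1. None of these 8 values passed the test, and all were below 0.

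**Figure D3:**
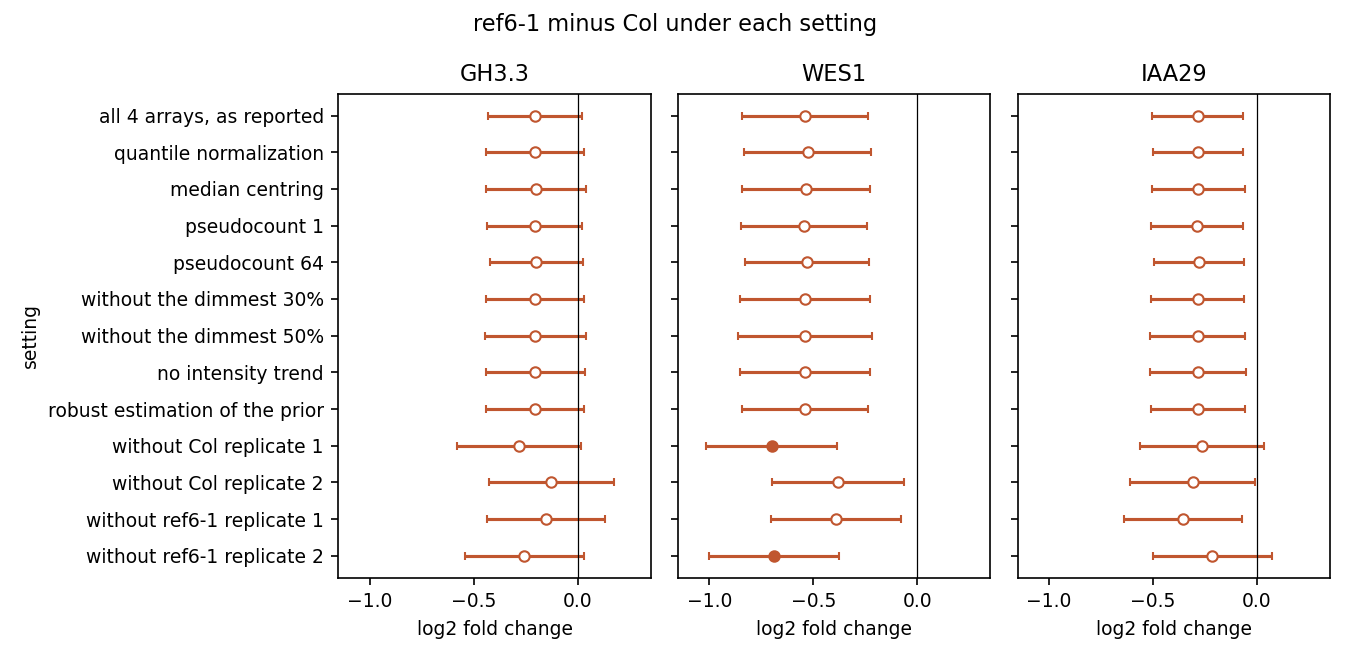
Log2 fold change of ref6-1 minus Col with its 95% interval for each gene, fitted on all 4 arrays, under 8 other processing settings and with each array left out; filled points passed an adjusted p of 0.05 in limma. The processing settings hardly move the points, whereas leaving out 1 array moves WES1 between -0.70 and -0.38 and turns its point filled in 2 of 4 cases.

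The other genes of the pathway came from lists of 143 loci for auxin synthesis, transport, perception and response, shade and salicylic acid, of which 22 had a probe set with a single named gene. The auxin receptors, the auxin response factors, the auxin carriers, the shade and PIF genes and the salicylic acid genes had no member among the 22 and were not analysed here. The array may measure the other loci through probe sets that the annotation does not name singly. None of the 22 was called in either direction by limma at the adjusted threshold. Among the brightest probe sets of the 13286 named loci, 0.549% were called lower and 0.565% higher. At an unadjusted p under 0.05 there were 6 of the 22, and 989 (7.44%) of all 13286 loci. In 8 of the 22 both ref6-1 arrays were below both Col arrays and in 2 both were above, against 19.8% and 14.3% of the named loci. Without GH3.3, WES1 and IAA29, 4 of 19 had such a p, 5 were below and 2 above on both mutant arrays, with a median log2 fold change of -0.04, beside -0.03 for all named loci.

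In the GH3 family 7 of 13 listed members had a singly named probe set, and none passed. Fold changes were below 0 in 6 of the 7, or 5 after quantile normalization, where GH3.1 lay above 0. Over all named loci 59.2% of the fold changes were below 0, and without GH3.3 and WES1 it was 4 of 5 family members. The median was -0.17, or -0.12 without GH3.3 and WES1, beside -0.03 for all named loci. WES1 had the lowest value. GH3.17, an auxin amido synthetase like GH3.3, had intensities of 425 and 472 in Col, against 428 and 478 in ref6-1. Its genotypes overlapped and its log2 fold change was 0.01 (limma adjusted p = 0.992). The other named members were dim. GH3.1 lay between 65.7 and 71.2 on the 4 arrays, at a fold change of -0.02, and GH3.9 between 31.6 and 44.4, at -0.12, both with overlapping genotypes. Leaving out 1 array moved GH3.9 from -0.24 (without Col replicate 2) to -0.01 (without Col replicate 1). AT1G23160 and AT5G51470, which the annotation gives by locus code alone, had fold changes of -0.29 (adjusted p = 0.389) and -0.17 (adjusted p = 0.828). AT5G51470 was at -0.09 without Col replicate 1 and -0.26 without Col replicate 2. AT1G23160 was the dimmer of the pair, at 22.8 and 23.5 in Col and 15.2 and 16.6 in ref6-1, so that its fold change is understated by the added 16.

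In the Aux/IAA family 7 of 29 listed members had a singly named probe set, and none passed. Fold changes were below 0 in 4 of the 7 (3 of 6 without IAA29). The median was -0.07, or -0.02 without IAA29. IAA30 and IAA20 had fold changes near that of IAA29, and the order of the 3 changed with the pseudocount and with the arrays used. IAA30 read 152.7 and 153.4 on the Col arrays and 124.1 and 125.8 on the ref6-1 arrays, which gave -0.26 on the log2 scale (SE 0.0973, unadjusted p = 0.0228, limma adjusted p = 0.415). IAA20 was read at 85.2 and 66.8 in Col and at 57.9 and 62.5 in ref6-1, at -0.27 (SE 0.121, adjusted p = 0.608). Without Col replicate 1 it stood at -0.12, and without Col replicate 2 at -0.41. Both genes had non-overlapping genotypes. The fold changes of IAA18, IAA31, IAA33 and IAA34 lay between -0.07 and 0.06, and their genotypes overlapped.

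Among the listed genes outside these families, HAT2 had the lowest fold change. HAT2, an auxin-induced homeodomain leucine zipper factor, had intensities of 2351 and 2247 in Col, against 1896 and 1752 in ref6-1. The genotypes did not overlap, with a log2 fold change of -0.33 (SE 0.0971, unadjusted p = 0.00679, limma adjusted p = 0.212). LBD16 and LBD29, factors of lateral root formation downstream of auxin, had fold changes of 0.01 and 0.05 with overlapping genotypes. Among the genes for auxin synthesis, YUC2, YUC4 and YUC6 encode flavin monooxygenases that make auxin. YUC2 read 236.3 and 247.5 on the Col arrays and 266.9 and 283.4 on the ref6-1 arrays, higher on both mutant arrays, with a fold change of 0.18 (adjusted p = 0.747). YUC4 and YUC6 had -0.10 and -0.04, and their genotypes overlapped. On the list of auxin synthesis and turnover, AT1G14120 had 0.27 (SE 0.0958, unadjusted p = 0.0192, adjusted p = 0.383) and AT1G14130 had -0.05. The lists do not hold every auxin-related gene. Outside them, the auxin glucosyltransferase genes IAGLU (AT4G15550) and UGT84B1 (AT2G23260) had -0.48 and 0.08. IAGLU read 477 and 487 on the Col arrays and 318 and 366 on the ref6-1 arrays. Its limma unadjusted p of 0.00102 was smaller than that of WES1 (adjusted p = 0.0617).

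**Figure D4:**
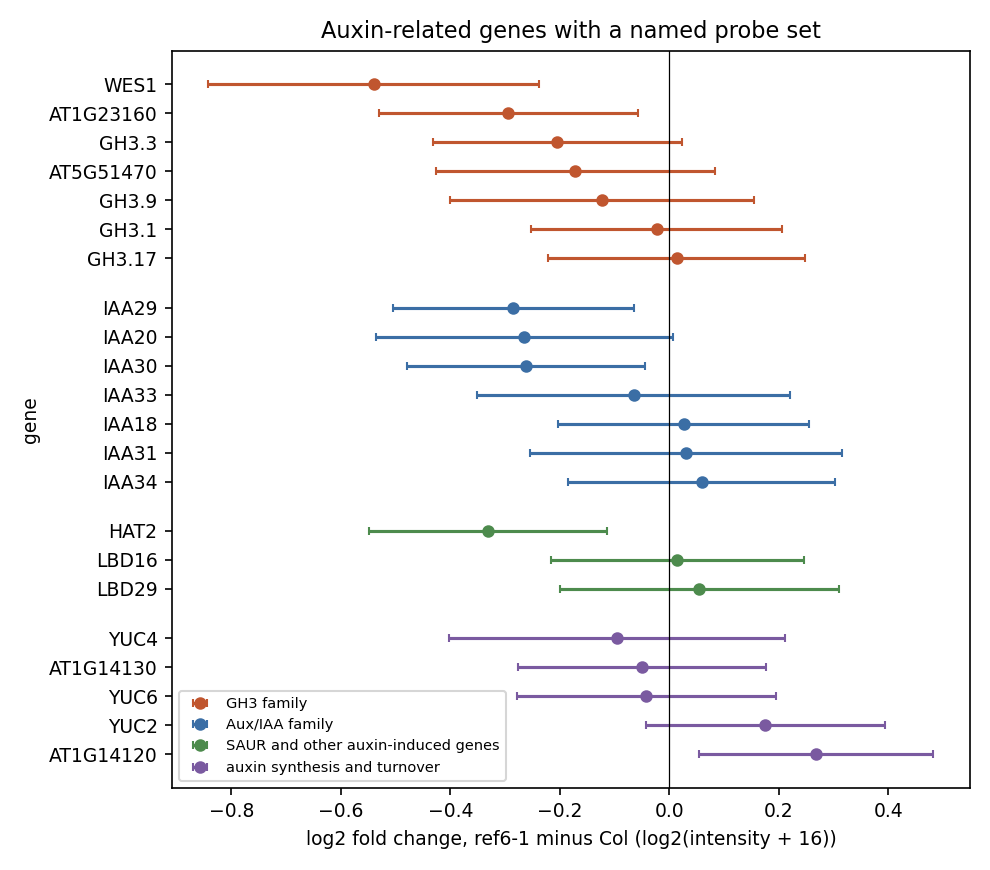
Log2 fold change of ref6-1 minus Col with its unadjusted 95% interval for the 22 listed auxin-related loci that had a single named probe set, coloured by list. WES1, IAA29 and HAT2 are at the low end of their lists at -0.54, -0.29 and -0.33, and none of the 22 passed the limma test.

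The makeup of the seedlings was compared through the organ markers the annotation names, 2 of 5 for leaf and 2 of 5 for root. RCA, the Rubisco activase, lay between 12708 and 13608 in Col and between 13486 and 13878 in ref6-1, and the antenna protein gene LHCB4.1 between 11876 and 12149 and between 11560 and 12764. The root-hair expansin genes EXPA7 and EXPA18 were read on all 4 arrays, at 91.2 to 96.1 and 186.2 to 212.4 in Col, and at 96.7 to 108.8 and 206.1 to 219.8 in ref6-1. None of the 4 passed, with fold changes of 0.02 to 0.11. Their SEs were 0.0978 to 0.1055, so their signs are not settled. RCA was at -0.01 after quantile normalization, and LHCB4.1 was below 0 without Col replicate 1 or ref6-1 replicate 2. For EXPA7 alone both ref6-1 arrays were above both Col arrays, as for 14.3% of the named loci. What part organ makeup has in the lower intensities was not tested.

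The genes with the most similar pattern over the 4 arrays were sought among 10244 probe sets with a single named gene and a mean intensity of at least 50. Likeness was the Euclidean distance between log2 profiles centred on their own mean. With 4 arrays many probe sets come close, and 177, 187 and 366 correlated at 0.95 or more with GH3.3, WES1 and IAA29. Nearest to GH3.3 were AT5G61340 (distance 0.0158), FDH, which encodes formate dehydrogenase (0.0164), and AT5G17960 (0.0180). FDH read 3156 and 3548 on the Col arrays and 2770 and 3013 on the ref6-1 arrays, a difference of -0.21 in log2 (limma adjusted p = 0.666). The nearest to IAA29 were AT1G33030 (0.0317), AT3G57770 (0.0378) and the sugar transporter gene SWEET1 (0.0473). SWEET1 read 408.8 and 387.6 on the Col arrays and 338.7 and 296.1 on the ref6-1 arrays, at -0.32 (adjusted p = 0.313).

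WES1 had no neighbour as close, the distances being 0.131 for AT1G29660, 0.160 for AT1G68110 and 0.165 for AT2G39980. As their choice by profile entails, these loci had nearly the same fold change as WES1, at -0.53, -0.54 and -0.54. They passed the test with limma adjusted p of 0.0480, 0.0446 and 0.0341. Their SEs were 0.110, 0.109 and 0.104, against 0.135 for WES1. AT1G29660 read 1412 and 1578 on the Col arrays and 956 and 1104 on the ref6-1 arrays, less spread within each genotype than WES1. These calls were close to the threshold. AT1G29660 missed it in 8 of the alternatives tried, AT1G68110 in 4 and AT2G39980 in 2. In the same order, their adjusted p was 0.131, 0.0722 and 0.109 without Col replicate 2, and 0.149, 0.166 and 0.0769 without ref6-1 replicate 1. Without ref6-1 replicate 2, AT1G68110 also missed it (limma adjusted p = 0.0608).

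**Figure D5:**
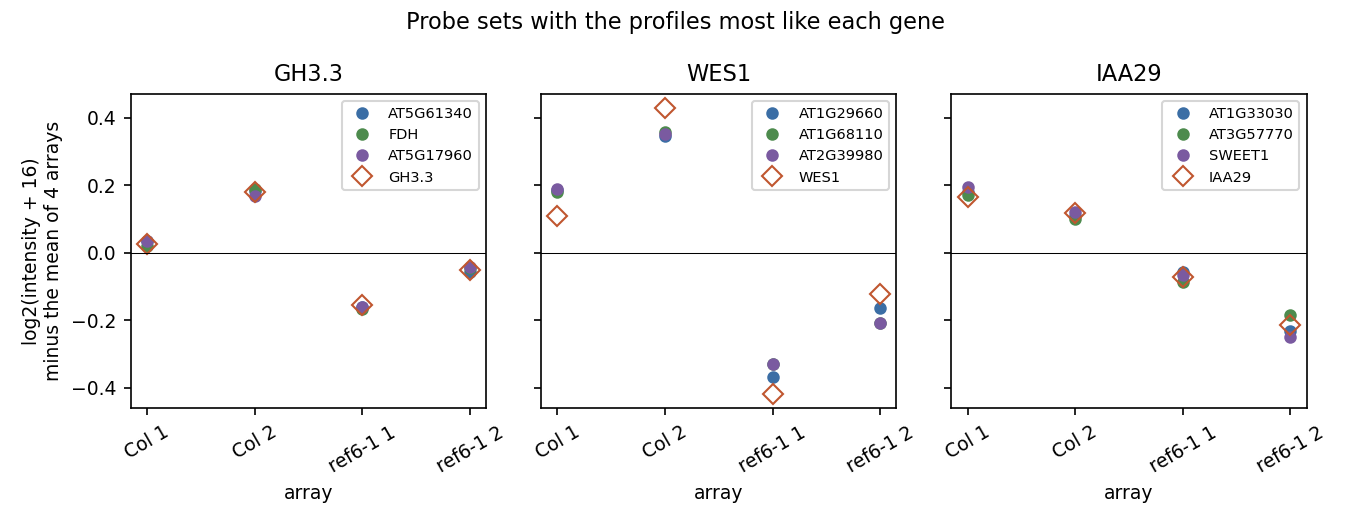
Log2(intensity + 16) minus its mean over the 4 arrays for each gene (open diamonds) and the 3 probe sets with the most similar profile (filled circles). The circles lie on or close to the diamonds for GH3.3 and IAA29, while the WES1 diamonds lie further from 0 than the circles on Col replicate 2 and ref6-1 replicate 1 and nearer to 0 on the other arrays.

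The nearest genes with a named probe set along the chromosome were also read, the first 2 such loci on each side in the TAIR10.1 gene order. Genes between them without a named probe set were passed over. None of the 12 passed the limma test, and 3 had an unadjusted p under 0.05, as had 7.44% of all named loci. Around IAA29, 3 of 4 neighbours were lower on both ref6-1 arrays than on both Col arrays, an ordering shown by 19.8% of named loci and by 3 of the 12 neighbours in all. AT4G32270 read 196.5 and 186.6 on the Col arrays and 157.6 and 153.7 on the ref6-1 arrays, at -0.27 (limma adjusted p = 0.386). AT4G32290 had -0.19, AT4G32250 -0.13 and AT4G32330 0.10. Around WES1 the values were -0.12 for AT4G27250, -0.05 for AT4G27240, -0.01 for AT4G27270 and 0.33 for AT4G27280, all with overlapping genotypes. Around GH3.3, AT2G23160, AT2G23200 and AT2G23210 lay between -0.09 and -0.05 and overlapped, while AT2G23120 was higher on both ref6-1 arrays, at 0.38 (adjusted p = 0.173).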

How the data were processed

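The authors deposited a linear intensity for every probe set on every array. How they summarized, background-corrected or normalized it is not stated in the labels. Per the labels' protocols, the arrays received biotinylated cRNA prepared from 10 ug of Trizol-extracted total RNA. Median intensities of the 4 arrays lay between 142.6 and 146.3, and their number limits the precision. Nothing says whether the biological replicates were separately grown. The p-values test the genotype difference against limma's SE, which combines the spread between these samples with the spread predicted from all probe sets.

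Of 22810 probe sets, 64 controls were left out. Values were taken as log2(intensity + 16) without further normalization or filter and compared in limma 3.58.1 (R 4.3.3) by lmFit and trended eBayes. Two-sided p-values were adjusted by Benjamini-Hochberg over 22746 probe sets, with a threshold of 0.05. The fit was run on data simulated from its own fitted model of spread, so that model itself was not tested. The run required only the recovery of changes larger than those of the genes described here. Names come from the platform annotation and loci from the RefSeq table of TAIR10.1, by Entrez identifier: 13513 probe sets had 1 gene and 13436 of them a locus. The brightest probe set stood for each locus. No build is stated for the array, so coordinates are left out. No sequences were used, and the planned promoter motifs were not searched.

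The 3 genes and the lists were chosen with earlier results of these data known. Named were the 3 genes and all GH3 and Aux/IAA members with a singly named probe set. From other lists came the called members up to 4 or, with fewer than 2 called, those with the smallest p up to 2. LBD16, YUC4, YUC6, AT1G14130 and, from outside the lists, IAGLU and UGT84B1 were added after their values were seen. The 3 probe sets most alike in profile were also named. Chromosomal neighbours were added after the files were opened, by position. Alternatives were quantile normalization, median centring, dropping the dimmest 30% or 50%, pseudocounts of 1 and 64, an untrended prior, a robust prior, a replicate block, each array left out and, for the count, a log2 fold of 0.6.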

Additional observations from a re-analysis of the deposited data

How the results depend on the processing

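Under 8 alternatives of normalization, pseudocount, filter and prior, GH3.3 stayed between -0.21 and -0.20, WES1 between -0.54 and -0.53 (limma adjusted p 0.110 to 0.136) and IAA29 between -0.29 and -0.28, none past the threshold. When 1 array was left out, the single array remaining being given the spread of the other genotype, GH3.3 ranged from -0.28 to -0.13, IAA29 from -0.36 to -0.21 and WES1 from -0.70 to -0.38, and WES1 passed without Col replicate 1 or ref6-1 replicate 2. The count of 337 probe sets then ranged from 273 to 533 (533 without Col replicate 2), and that of the 22 auxin-related loci from 0 to 1, the 1 being WES1. With a log2 fold of at least 0.6 in addition, 236 probe sets remained past both rules. A fit with the replicate block called 1636 probe sets and 5 of the 22 loci, WES1 at -0.54 (adjusted p = 3.88e-14), IAA29 at -0.29 (adjusted p = 0.000555), GH3.3 at -0.20 (adjusted p = 0.0380), HAT2 and AT1G14120. In that fit the SEs of WES1, IAA29 and GH3.3 were nearly equal, at 0.0660, 0.0666 and 0.0679. Their p-values rest almost wholly on the spread predicted from all probe sets, not on the replicates of each gene. The labels give the 2 numbers no shared batch, and the correlation of replicate differences across probe sets, 0.279 with 2 pairs, does not establish a pairing.

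Values near 0 changed sign. GH3.1 was at 0.0147 and RCA at -0.00664 after quantile normalization. With 1 array left out the ranges were -0.0709 to 0.0238 for GH3.1, -0.0645 to 0.0905 for GH3.17, -0.0635 to 0.115 for IAA18, -0.129 to 0.191 for IAA31, -0.235 to 0.104 for IAA33, -0.0278 to 0.146 for IAA34, -0.0505 to 0.0787 for LBD16, -0.0447 to 0.154 for LBD29, -0.247 to 0.0551 for YUC4, -0.125 to 0.0393 for YUC6 and -0.0552 to 0.0875 for LHCB4.1. The cause was not tested. The unstated background correction limits what the dim probe sets, such as AT1G23160 and GH3.9, can show.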
